A study of Mus musculus with 3 samples.

Results

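The genes described here encode the components that carry a signal from the T cell receptor (TCR) into the cell: the invariant receptor chains, the tyrosine kinases next to them, the adaptors, the enzymes downstream, and the proteins that restrain the signal. They were taken from a list of 43 genes by symbol. A gene counts as measured where a probe set carries it as the only annotated gene, and the probe set with the highest mean log2 intensity stands for it. In this way 42 of the 43 genes were measured, out of 19518 genes in all. Lck, the kinase that starts the cascade, was not analysed here because no probe set carries it as its only gene. Dgkz had 2 probe sets and the other 41 genes had 1 each.

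The data are 3 Affymetrix Mouse Gene 1.0 ST arrays, 1 for each genotype of Zbtb16, the gene that encodes the transcription factor PLZF. The PLZF+/+ array holds wild-type cells, the PLZF+/lu array cells heterozygous for the luxoid allele, and the PLZFlu/lu array cells homozygous for it. Luxoid is a point mutation that inactivates PLZF. The cells were CD4+CD8− thymocytes labelled gammadelta NKT cells, from female mice aged 3 to 4 weeks on the C57BL/6 background. Every group also lacked Rag1 and carried a transgenic Vγ1Vδ6.4 TCR, details that come from the methods and not from the labels, so that all T cells share the transgenic receptor and have no other. The sources used here do not say how many mice stand behind an array.

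TCR chains themselves have no enzymatic activity. Tyrosines in the CD3 and ζ chains are phosphorylated by Src family kinases and recruit Zap70 or Syk, which phosphorylate the adaptors Lat and Slp-76. Phospholipase Cγ1 and Ras exchange factors assemble on these adaptors and start calcium, NFAT, MAP kinase and NF-κB signalling, while phosphatases, ubiquitin ligases and diacylglycerol kinases limit it. NKT cells, and γδ T cells like them, are known to receive strong TCR signals when they are selected in the thymus.

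With 1 array per genotype no difference has a replicate check, and none has an error or a p-value. Fold thresholds are therefore rules of size, and the counts of genes past them are set beside the counts over all genes. The median intensities of the arrays lay between 159.7 and 161.8. All 42 genes were above 108 on each array, the level under which 95% of the values of 1033 olfactory receptor probe sets lie. Their lowest value was 167. In all, 11973 genes were above 108 on at least 1 array, and these are called genes above background. Intensities are given from here on in the order PLZF+/+, PLZF+/lu, PLZFlu/lu. Zbtb16 itself was at 8796, 6143 and 2890.3, which checks the labels in part only, because a point mutation leaves a transcript that the probes can bind. Cd4, the coreceptor the cells were sorted for, was at 6401, 6208 and 7191. Trdc and Tcrg-C1, which would mark the γδ lineage, were not analysed here. For 7 of the 42 genes the deposited values were identical on all 3 arrays (16.7%), as they were for 46.8% of all genes and 33.6% of genes above background. The sources used here do not say how probe values were summarised, so an equal value is reported as equal and not as evidence of no difference.

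TCR signalling genes differed little between PLZF+/+ and PLZFlu/lu thymocytes, and those that differed were mostly lower in PLZF+/+. Ubash3a, which encodes the suppressor of TCR signalling Sts-2, was the one gene of the 42 past 1.5-fold, with intensities of 1404 in PLZF+/+ and 2712 in PLZFlu/lu cells. That is 1 of 42 genes (2.38%), against 0.579% of all genes that were lower in PLZF+/+ by more than 1.5-fold. Of genes above background 0.902% were lower by this much, and 2.23% were past it in either direction, a share near that of the 42. None of the 42 was past 2-fold in either direction, as 0.430% of all genes were. Dgka, Pag1, Rasgrp1 and Cd2 followed Ubash3a with folds between 1.27 and 1.37, all lower in PLZF+/+. With a threshold of 1.2-fold, chosen after the values were seen, 7 genes (16.7%) were lower in PLZF+/+, these 5 with Ptprc and Cd5, and 2 (4.76%), Syk and Ptpn6, were higher. Of all genes 2.40% were lower and 4.26% higher by this much, and of genes above background 3.40% and 6.64%. The count past 1.2-fold was 4 in place of 9 where PLZF+/+ was replaced by its average with PLZF+/lu, a step that by construction makes differences smaller at genes with an intermediate PLZF+/lu value.

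Counted without regard to size, 24 of the 42 genes were lower in PLZF+/+ than in PLZFlu/lu, 10 higher and 8 equal. Over all genes the direction was the opposite, with 16.9% lower and 24.9% higher, and among genes above background 19.6% were lower and 35.7% higher. The median log2 difference, PLZF+/+ minus PLZFlu/lu, was -0.01 over the 42 genes and 0.00 over all genes. Past 1.1-fold, a threshold also chosen after the values were seen, 13 of the 42 were lower and 4 higher in PLZF+/+. Of all genes 5.49% were lower and 9.80% higher by this much, and of genes above background 7.02% and 14.9%. With the same averaging, 2 in place of 4 were higher. The list was put together with earlier results of these arrays known, so its tilt towards lower values is a description of these 3 arrays.

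The summed level of CD4+CD8+ thymocyte markers had the order of genotypes seen for Ubash3a. Cd8b1 and Cd8a set that order, and not every marker had it. Of 9 such markers 8 were above background, and the sum over the list was 4968, 6091 and 7226. Cd8b1, at 1289.7, 2263 and 2958, Cd8a, at 369, 519 and 601, and Arpp21, at 529, 567 and 639.5, had that order. Their log2 differences, PLZF+/+ minus PLZF+/lu, were -0.81, -0.49 and -0.10, and no other listed marker was lower in PLZF+/+ than in PLZF+/lu. The paper names Cd8b1 among the genes with lower expression where PLZF is present. Cd24a, at 213, 207 and 361, Dntt, at 162, 157 and 209.7, and Rmnd5a, at 1804, 1778 and 1844, were lowest in PLZF+/lu. Aqp11 was at 385, 385 and 395, Ptcra was equal on all arrays at 167 and Rag2 lay below 108. The part of such cells in the values of Ubash3a, Dgka, Pag1, Rasgrp1, Cd2, Cd5, Ptprc and Themis was not tested. According to the methods the cells were sorted on CD4 and against CD8α in a pair of successive sorts. The sources used here give no purity after sorting. In RNA from a sorted population, fewer cells of a type and less RNA per cell cannot be told apart.

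**Figure D1:**
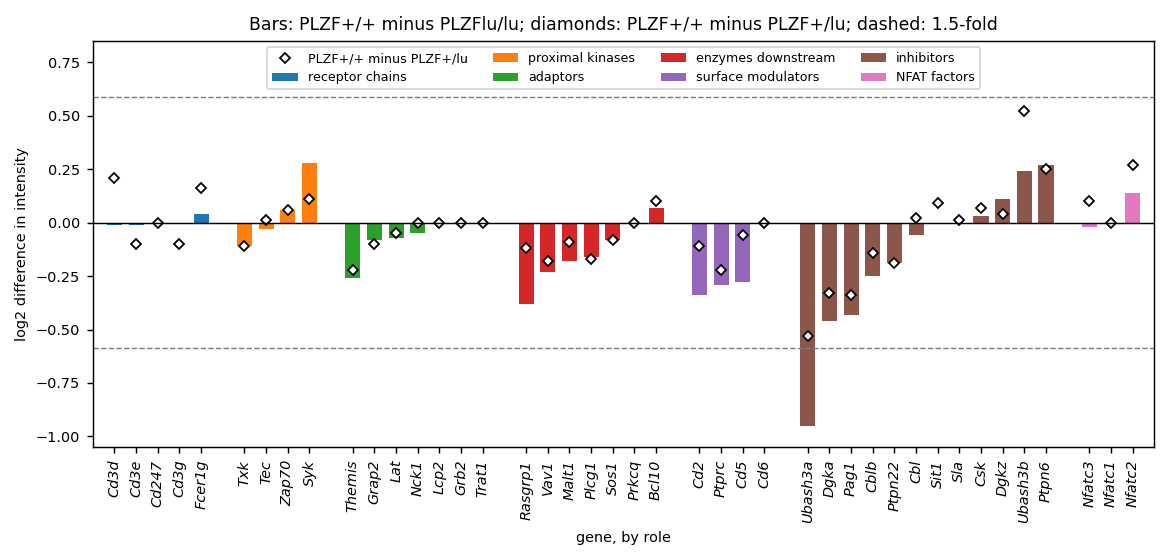
Log2 difference in intensity for each of the 42 genes, grouped by role on the x axis, without error bars since each genotype has a single array. Bars are PLZF+/+ minus PLZFlu/lu, diamonds PLZF+/+ minus PLZF+/lu, and dashed lines mark 1.5-fold; Ubash3a, at -0.95, is the only bar beyond them.

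The 3 genes with the largest differences between the outer genotypes, Ubash3a, Dgka and Pag1, all restrain the signal. Ubash3a was at 1404, 2027 and 2712 (probe set 10443749). Each copy of the luxoid allele went with a higher value, by 1.44-fold from PLZF+/+ to PLZF+/lu and by 1.34-fold from PLZF+/lu to PLZFlu/lu. Among the 11973 genes above background, 39 genes (0.326%), Ubash3a among them, had a difference this low or lower. Dgka, a diacylglycerol kinase that removes the lipid activator of Rasgrp1, was at 11411, 14307 and 15660.0. Pag1, the membrane adaptor that brings the inhibitory kinase Csk to Src kinases, was at 1148, 1458 and 1551. For Dgka and Pag1 the PLZF+/lu value lay nearer to PLZFlu/lu than to PLZF+/+. Cblb, a ubiquitin ligase of activated TCR components, was at 4403, 4847 and 5230.3, so that the outer genotypes differed by 1.19-fold. The phosphatase gene Ptpn22 was at 2598, 2970.0 and 2963.

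Other inhibitors lay the opposite way or close to equality. Ubash3b, the paralog of Ubash3a, encodes the phosphatase Sts-1 and was at 421, 294 and 357. It was thus highest in PLZF+/+ and lowest in PLZF+/lu cells, with a 1.43-fold difference between these, and did not share the order of Ubash3a. Ubash3b lies on the same chromosome as Zbtb16, as do Cbl, Csk, Nck1, Cd3d, Cd3e and Cd3g. Any part of this position in their values was not tested. Ptpn6, which encodes the phosphatase SHP-1, was at 2146, 1806 and 1776, so that both genotypes with a luxoid allele lay below PLZF+/+. Dgkz, the second diacylglycerol kinase of T cells, had log2 differences between the outer genotypes of 0.11 by its brighter probe set and -0.02 by the other. Cbl, Csk, Sit1 and Sla, which encode a ubiquitin ligase, the inhibitory kinase of Src kinases, a membrane adaptor and the adaptor SLAP, differed between the outer genotypes by -0.06 to 0.03. Of the 12 inhibitors, 6 were lower in PLZF+/+, 5 higher and 1 equal, with a median log2 difference of -0.03, against 19.6% lower and 35.7% higher among genes above background.

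The sequences upstream of Ubash3a and Rasgrp1 are shown because these genes had the largest differences among the 42 of those with exactly 1 start in the RefSeq promoter table of build GRCm38.p6. Each line gives the 250 bases before the start, 5′ to 3′ on the strand of the gene, with E-boxes (CANNTG, a motif bound by E proteins and other helix-loop-helix factors) in capitals. Ubash3a lies at chr17:31207816-31208065 on the + strand and Rasgrp1 at chr2:117342878-117343127 on the − strand.
Ubash3a: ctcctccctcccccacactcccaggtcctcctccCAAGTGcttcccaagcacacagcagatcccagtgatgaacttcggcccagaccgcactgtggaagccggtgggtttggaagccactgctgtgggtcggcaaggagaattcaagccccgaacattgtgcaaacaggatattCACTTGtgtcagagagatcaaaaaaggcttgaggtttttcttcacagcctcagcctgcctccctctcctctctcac
Rasgrp1: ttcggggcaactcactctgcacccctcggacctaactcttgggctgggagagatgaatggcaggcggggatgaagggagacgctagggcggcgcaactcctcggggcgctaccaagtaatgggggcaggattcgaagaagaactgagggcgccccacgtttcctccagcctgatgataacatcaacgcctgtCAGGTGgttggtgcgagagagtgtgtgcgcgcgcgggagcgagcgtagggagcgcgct
The Ubash3a stretch holds 2 E-boxes and the Rasgrp1 stretch 1. The motif reads the same on both strands and no other motif was searched. It is in 66.2% of the 32851 stretches of this length in the table, and in 39 of the 55 (70.9%) that belong to the 37 listed genes found there, so it does not set these genes apart. The arrays measure no binding at these stretches.

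The receptor chains were close to equal between PLZF+/+ and PLZFlu/lu. Cd3g was at 11388, 12236 and 11410.1 and Cd3e at 10549.6, 11334 and 10599, so that for both the PLZF+/lu array was the highest. Cd3d, whose chain is part of the αβ but not of the usual mouse γδ receptor complex, was at 3469, 2996 and 3497. Here PLZF+/lu was the lowest, by 1.16-fold against PLZF+/+, although Cd3d lies between Cd3e and Cd3g in the annotation with no other protein-coding gene among them. Cd247, which encodes the ζ chain, was at 1839.8 on all 3 arrays. Fcer1g, the Fc receptor γ chain that can take the place of ζ in γδ T cells, was at 233, 209 and 227. Between the outer genotypes the 5 chains differed by -0.01 to 0.04 on the log2 scale.

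Of the 4 kinases measured, Zap70, the main TCR kinase of mature T cells, was at 2703, 2595 and 2595. Syk, its relative in B cells, myeloid cells and early thymocytes, was at 203, 188 and 167, a 1.21-fold difference. The lowest of these is the lowest value in the list. The Tec family kinase genes Txk and Tec, neighbours in the annotation, were at 3145, 3393 and 3393 and at 485, 481 and 496. For Zap70 and Txk the PLZF+/lu and PLZFlu/lu arrays were listed at the same value. Fcer1g and Syk are also genes of myeloid, NK and mast cells. The defining myeloid genes Lyz2 and Csf1r, the NK genes Ncr1 and Klrb1c and the mast cell genes Kit and Fcer1a were below 108 on all 3 arrays. Without Fcer1g and Syk, the 9 myeloid markers had a summed intensity of 909, 902 and 883, and 2 of the 9 were above background, Cd68 at 386 on each array and Itgam at 164, 152 and 139. Of 8 NK cell markers 3 were above background, with a sum of 924, 934 and 960.2 over the list. They were Prf1 at 343, 343 and 367, Gzma at 234, 234 and 239.8 and Tyrobp at 146, 149 and 146. Of 7 mast cell markers 2 were above background, with a sum of 614, 579 and 546. These 2 are Gata2, at 155 on each array, and Cpa3, which was at 178, 143 and 111 and so had the order of genotypes of Syk. Over the marker lists of B cells, dendritic cells, thymic epithelium and erythroid cells the sums were 2059.5, 1843 and 1808, 559.9, 569 and 569, 1164, 1109 and 1091, and 325, 341 and 325. Above background were 3 of 7, 1 of 7, 4 of 7 and 1 of 3 of these markers. The B cell gene Cd79b, at 1658, 1440.2 and 1406, made up most of its sum. It had the order of Syk, as had Itgam and the epithelial gene Ccl25, at 512, 452 and 450.3. Vpreb3, Siglech, Aire and Foxn1 were equal on all arrays. The part of other cell types in the Fcer1g and Syk values was not tested.

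**Figure D2:**
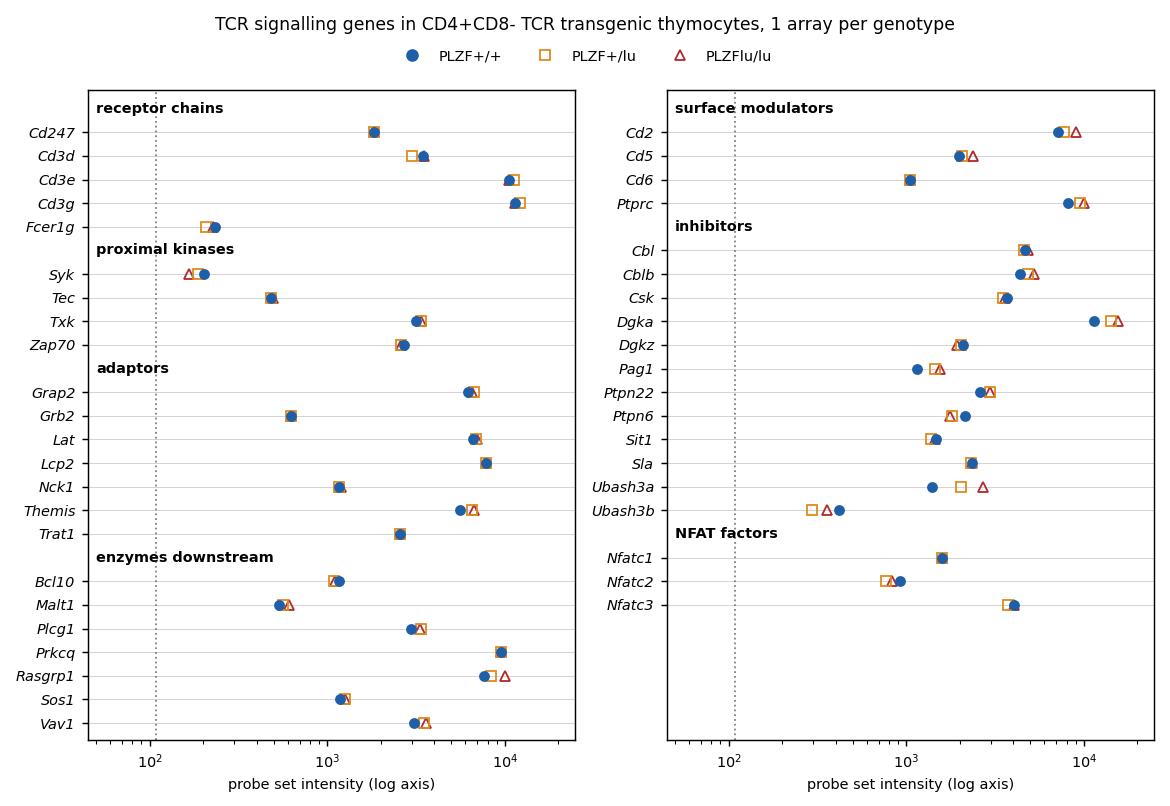
Probe set intensity (log axis) of each of the 42 genes by role, on the PLZF+/+ (filled circle), PLZF+/lu (square) and PLZFlu/lu (triangle) array, without error bars. The dotted line is the olfactory receptor level of 108, and the 3 symbols nearly coincide for most genes but stand apart for Ubash3a, Dgka, Pag1 and Ubash3b; positions of different genes depend on their probes and are not to be compared.

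Themis, a thymocyte adaptor needed for positive selection, had the largest difference of the 7 adaptors, at 5612, 6532 and 6719 or -0.26 between the outer genotypes on the log2 scale. Its PLZF+/lu value lay close to PLZFlu/lu. Lat, the membrane scaffold on which the signalling complex forms, was at 6658, 6909 and 6989, and Grap2, which encodes Gads, the link between Lat and Slp-76, at 6217, 6672 and 6554. Nck1, an adaptor to the cytoskeleton, was at 1162, 1162 and 1201. Lcp2, which encodes Slp-76, was listed at 7798 on each array, Grb2, the adaptor of the Ras exchange factor Sos1, at 626, and Trat1, a TCR-interacting membrane adaptor, at 2561. In all, 4 of the 7 adaptors were lower in PLZF+/+, 0 higher and 3 equal, with a median of -0.05, while of genes above background 19.6% were lower, 35.7% higher and 44.7% equal.

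Among the 7 enzymes and signal transducers downstream of the adaptors, 5 were lower in PLZF+/+, 1 higher and 1 equal, with a median log2 difference of -0.16 (genes above background, 19.6% lower and 35.7% higher). Rasgrp1, the diacylglycerol-dependent exchange factor that activates Ras in thymocytes, was at 7665, 8316 and 9980.3. Its log2 difference was larger between PLZF+/lu and PLZFlu/lu, at -0.26, than between PLZF+/+ and PLZF+/lu, at -0.12. For Dgka it was the reverse, with -0.13 and -0.33. Vav1, a guanine nucleotide exchange factor, was at 3095, 3514 and 3619. Plcg1, the phospholipase that makes diacylglycerol and the calcium-mobilising messenger, was at 2982, 3355 and 3334. Of the genes of the NF-κB branch, Prkcq, which encodes the kinase PKCθ, was at 9578 on all arrays, Malt1 at 533, 566 and 606, and Bcl10, its partner, at 1166, 1086 and 1113. Sos1 was at 1187, 1253 and 1253.

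Of the 4 surface modulators, 3 were lower in PLZF+/+ and 1 was equal, with a median of -0.29, where 19.6% of genes above background were lower. Cd2, an adhesion and costimulation receptor, was at 7166, 7752 and 9096, 1.27-fold apart between the outer genotypes. Cd5, an inhibitory receptor whose surface level follows the strength of TCR signals in thymocytes, was at 1972, 2057 and 2392. For both, PLZF+/lu lay nearer to PLZF+/+. Cd6, the neighbour and relative of Cd5, was listed at 1049 on each array. Ptprc, which encodes the phosphatase CD45 that activates Src kinases, was at 8181, 9550.4 and 10025, with PLZF+/lu nearer to PLZFlu/lu.

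The NFAT factors, which carry the calcium signal into the nucleus, showed no common order of the genotypes. Nfatc2 was at 923, 767 and 835, with a log2 difference of 0.27 between PLZF+/+ and PLZF+/lu and of 0.14 between PLZF+/+ and PLZFlu/lu. Nfatc3 was at 4029, 3752 and 4072. Nfatc1 was at 1583 on each array. For Nfatc2 and Nfatc3 the PLZF+/lu array was the lowest.

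The heterozygous array lay strictly between the others at 15 of the 34 genes whose outer values differed (44.1%), against 31.6% of such genes above background. It was between for 12 of the 24 genes lower in PLZF+/+ and for 3 of the 10 higher ones, Syk, Ptpn6 and Dgkz. Among genes above background it was between for 32.4% of the lower and 31.1% of the higher ones, so that the share of the 42 stood above the background for the lower genes and near it for the higher. Over all 42 genes PLZF+/lu was above both at 5 (11.9%), below both at 11 (26.2%) and tied with one of them at 4 (9.52%), against 12.2%, 17.3% and 19.5% of genes above background, and it was equal to both at 7. All 9 genes past 1.2-fold had PLZF+/lu between. So had 874 of the 1202 genes above background past that threshold (72.7%), so this is also the common order among genes with differences of that size. Taking the log2 distance from PLZFlu/lu to PLZF+/+ as 1, PLZF+/lu stood away from PLZFlu/lu by 0.44 for Ubash3a, 0.29 for Dgka, 0.21 for Pag1, 0.24 for Ptprc, 0.69 for Rasgrp1, 0.67 for Cd2 and 0.78 for Cd5, and by 0.60 for Syk and 0.09 for Ptpn6.

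**Figure D3:**
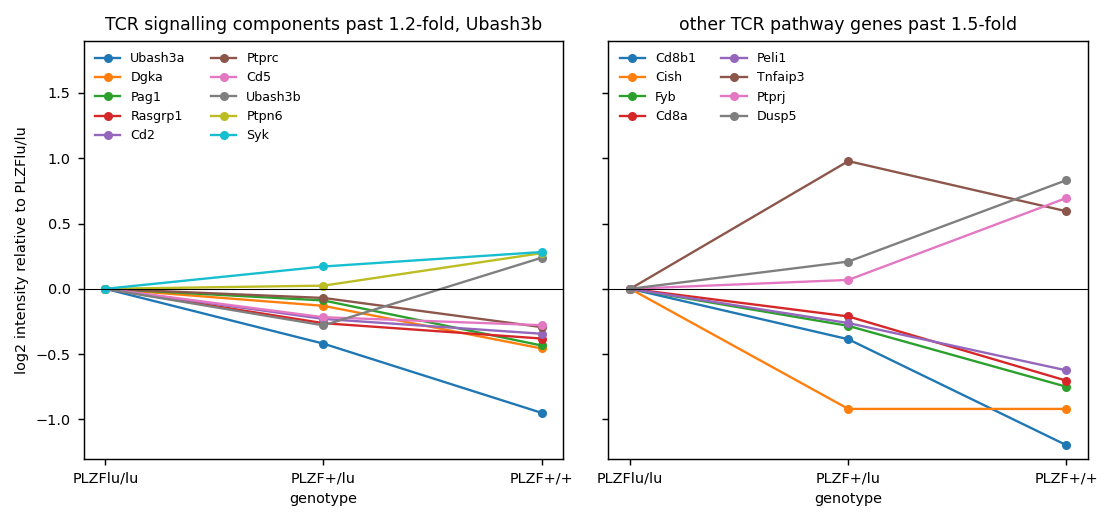
Log2 intensity relative to the PLZFlu/lu array (y axis) in the 3 genotypes (x axis), 1 array each, for the 9 TCR signalling components past 1.2-fold and Ubash3b (left) and for the 8 other TCR pathway genes past 1.5-fold (right). Ubash3a reaches -0.95 in PLZF+/+ and the 7 lower genes descend from PLZFlu/lu to PLZF+/+, whereas Ubash3b is lowest in PLZF+/lu.

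In the comparisons that involve the heterozygous array none of the 42 genes was past 1.5-fold. Between PLZF+/+ and PLZF+/lu 0.794% of all genes were past that threshold, and between PLZF+/lu and PLZFlu/lu 0.533%. Past 1.2-fold, Ubash3a, Dgka and Pag1 were lower in PLZF+/+ than in PLZF+/lu (7.14% of the 42, against 2.03% of all genes), and Ubash3b and Nfatc2 were higher (4.76%, against 3.90%). Of genes above background 2.70% were lower and 6.17% higher by that much, so the share of the 42 that was higher lay below theirs. Between PLZF+/lu and PLZFlu/lu, Ubash3a, Rasgrp1 and Ubash3b were lower in PLZF+/lu by that much (7.14%, against 1.80% of all genes) and 0 of the 42 were higher, against 1.96%. In this comparison 2.53% of genes above background were lower and 2.44% higher. To any degree, 15 genes (35.7%) were higher and 19 (45.2%) lower in PLZF+/+ than in PLZF+/lu. Of all genes 23.6% were higher and 21.2% lower, and of genes above background 36.2% and 21.7%. The share of the 42 that was higher was thus near that of genes above background. The split of the 42 was 12 and 30 after quantile normalization and 23 and 19 after centring each array on its median. Between PLZF+/lu and PLZFlu/lu, 8 of the 42 were higher and 24 lower in PLZF+/lu. Of all genes 24.6% were higher and 19.7% lower, and of genes above background 28.1% and 27.4%. The split of the 42 was 20 and 22 after quantile normalization, 18 and 24 after cyclic loess and 6 and 36 after centring on the median. The scalings thus moved this split in opposite directions. The 3 comparisons share arrays and are not independent of one another.

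A wider list of 91 TCR pathway genes outside the 43 had 80 measured members. By more than 1.5-fold 5 of them were lower in PLZF+/+ than in PLZFlu/lu (6.25%, against 0.579% of all genes) and 3 higher (3.75%, against 0.856%). Of genes above background 0.902% were lower and 1.33% higher by this much. The wider list too was chosen with earlier results of these data known, and Cd8b1 and Cd8a are also among the CD4+CD8+ thymocyte markers above. With PLZF+/+ averaged as above, 3 in place of 8 were past 1.5-fold. The lower ones were Cd8b1, Cish, Fyb, Cd8a and Peli1. Cd8b1 and Cd8a, the coreceptor chains of CD8, were at 1289.7, 2263 and 2958 and at 369, 519 and 601. Cish, a SOCS family inhibitor, was at 389, 389 and 736. Fyb, the adhesion adaptor ADAP that binds Slp-76, was at 3029, 4185 and 5095, and Peli1, a ubiquitin ligase that restrains T cell activation, at 4443, 5711 and 6849.9. Like Ubash3a, Fyb and Peli1 were lowest in PLZF+/+ and highest in PLZFlu/lu, with PLZF+/lu between.

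The 3 higher genes encode phosphatases and an inhibitor of NF-κB. The MAP kinase phosphatase gene Dusp5 was at 664, 431 and 373, Ptprj, which encodes the receptor phosphatase CD148, at 536, 347 and 331, and Tnfaip3, the NF-κB inhibitor A20, at 1049, 1369 and 695. For Dusp5 and Ptprj PLZF+/lu lay between the others and near PLZFlu/lu, while for Tnfaip3 it was the highest. To any degree, 28 of the 80 were higher in PLZF+/+, 31 lower and 21 equal, with a median log2 difference of 0.00. The wider list therefore had 38.8% of its genes lower in PLZF+/+, between the 57.1% of the 42 and the 19.6% of genes above background. Equal values made up 26.2% of the wider list, 19.0% of the 42 and 44.7% of genes above background. The shares of lower genes depend in part on these shares of equal values. The difference between the shares of lower genes was not tested.

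**Figure D4:**
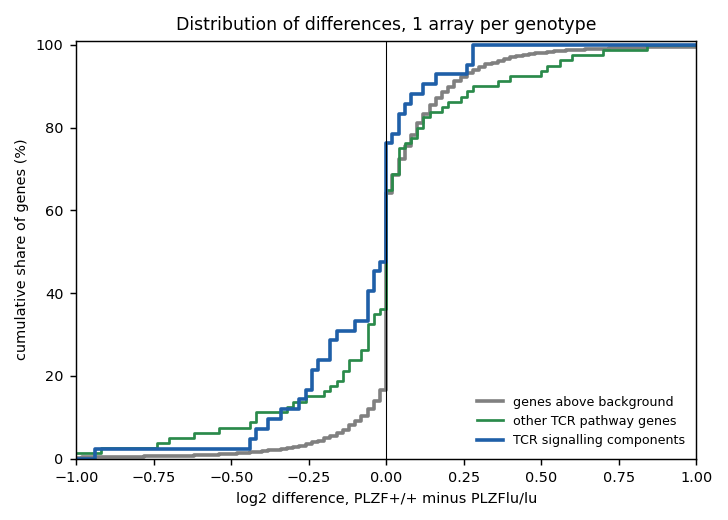
Cumulative share of genes (%, y axis) by log2 difference, PLZF+/+ minus PLZFlu/lu (x axis, drawn from -1 to 1), for the 42 TCR signalling components (blue), 80 other TCR pathway genes (green) and 11973 genes above background (grey), 1 array per genotype. The blue line lies above the grey one over most of the range below 0, and its lowest step is Ubash3a at -0.95.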

How the data were processed

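Scans of 3 Affymetrix Mouse Gene 1.0 ST arrays were processed by the authors in GenePattern, with normalization controls taken out. What they deposited are linear intensities of 24800 probe sets on each array. Build mm 8 is named in the submitters' processing notes. The sources used here do not name the summarisation or the scaling. The intensities were used as deposited, and 0 value columns lacked a sample. A probe set was named, through the platform annotation and the GRCm38.p6 RefSeq symbols, only where it had 1 gene (21065 probe sets). A gene with several was represented by the brightest on the log2 scale.

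Log2 differences were counted past 2-fold and 1.5-fold, and values within 1e-06 counted as equal. Thresholds of 1.2-fold and 1.1-fold were added after the values were seen. Having 1 array per genotype, no test was run, and precision is limited by the number of arrays. The genes, their roles, the wider pathway list and the marker lists were chosen with earlier results of these data known, among them that TCR signalling genes tended to be lower in PLZF+/+. Every listed gene is named, as are wider pathway genes past 1.5-fold. Counting was checked on simulated arrays. Alternatives tried were quantile, median and cyclic loess scaling, an addition of 32 to intensities, a filter on dim genes, averaging a gene's probe sets, and replacing PLZF+/+ by its average with PLZF+/lu. Software was Python 3.11.15 (numpy 2.4.6, pandas 2.3.3, matplotlib 3.10.9) and, for scaling, limma 3.58.1 in R 4.3.3. No coordinates of probe sets are given, since the builds differ from that of the promoter table.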

Additional observations from a re-analysis of the deposited data

How the results depend on the processing

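Ubash3a stayed past 1.5-fold under every alternative tried, with log2 differences between PLZF+/+ and PLZFlu/lu from -0.97 to -0.93, or -0.68 where PLZF+/+ was replaced by its average with PLZF+/lu. That replacement left 4 in place of 9 genes past 1.2-fold, 2 in place of 4 genes past 1.1-fold and higher, and 3 in place of 8 wider pathway genes past 1.5-fold. By construction it shrinks differences where PLZF+/lu lies between. Ubash3b, at 0.24, went to -0.02 with it. Under quantile scaling, and under the addition of 32, the count past 1.2-fold was 8 in place of 9. With that addition Syk went from 0.28 to 0.23, which is under 1.2-fold. No gene past 1.1-fold changed sign under quantile, median or cyclic loess scaling, but scaling turns equal values into small differences, so that 10 higher and 24 lower genes became 12 and 30 under quantile scaling and 9 and 33 under the others. The median of all genes moved by less than 0.1 on the log2 scale. The 1.2-fold and 1.1-fold thresholds were chosen after seeing the data. No paired analysis was possible because each genotype has 1 array, and no array could be left out for the same reason.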
